A study of Mus musculus with 18 samples.

Results

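The genes described here are those of the cytosolic ribosome, the particle that translates messenger RNA into protein outside the mitochondrion. They were taken by name: protein-coding genes whose symbol begins with Rpl or Rps followed by a number, Rplp or Rpsa, without the Rps6k kinases, names ending in -ps and Gm genes. This gave 85 genes, of which 80 reached at least 10 counts in at least 1 of 18 RNA-seq libraries and form the set, out of 38561 genes counted and 17545 that passed the same minimum. Among the 80 genes, 46 carry the Rpl prefix of the large subunit, 31 the Rps prefix of the small subunit, and 3 (Rplp0, Rplp1 and Rplp2) encode the stalk, the arm of the large subunit that recruits elongation factors. Rpl7l1 and Rps19bp1 are included by their names, although neither encodes a standard subunit of the mature ribosome. The other 5 genes stayed under the minimum: Rps16 reached 9 counts in its highest library, Rps29 6, Rps27 and Rpl39l 4 each, and Rpl10l 0.

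The libraries came from adult mice of strain C57 Bl6J. WT mice carry intact Pcm1, a gene for a scaffold protein of the centriolar satellites around the centrosome, and Pcm1-/- mice carry a gene-trap insertion in it. Frontal cortex, striatum and hippocampus were each represented by 3 WT and 3 Pcm1-/- libraries, and the WT mice were littermates of the Pcm1-/- mice. The allele came from 1 gene-trap clone of the embryonic stem cell line E14Tg2a.4, crossed to C57BL/6J for at least 3 generations, so DNA of the donor strain may remain around the insertion and elsewhere. Each library is bulk tissue, in which fewer cells of a type and less RNA per cell cannot be told apart.

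Libraries held 24950537 to 33405081 counts on genes. The 80 genes took 59008 to 88247 of these, which is 0.215% to 0.292% per library. Pcm1 checked the genotype labels: it stood at 120 to 172 CPM (counts scaled to a common library size with edgeR's TMM factors) in WT and at 11.8 to 17.6 CPM in Pcm1-/- libraries. The region labels were checked against marker lists. The summed level of 8 striatal genes was 6985 to 8951 CPM in striatum and at most 291 CPM elsewhere, that of 8 hippocampal genes was 834 to 1117 CPM in hippocampus and at most 449 CPM elsewhere, and that of 9 cortical genes was 1244 to 1328 CPM in cortex and at most 1032 CPM elsewhere. Mitochondrial transcripts took 3.15% to 7.55% of counts.

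A set of 4 libraries stood apart for several of the 80 genes, namely WT striatum 3, WT hippocampus 1, WT hippocampus 2 and Pcm1-/- hippocampus 2. Rps10, a small-subunit protein, was at 5.71 to 6.63 CPM in these 4 and at 9.59 to 14.7 CPM in the other 14. Rps21, also of the small subunit, was at 21.3 to 25.6 CPM in the 4 and at 33.2 to 47.1 CPM in the others. Counts assigned to ribosomal protein pseudogenes were 0.00458% to 0.00614% of counts in the 4 and 0.00250% to 0.00426% in the others. The 4 were singled out after these values were seen, and the number of genes called in each comparison is also given without them.

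Ribosomal protein genes work as a large co-regulated family: each ribosome needs one copy of nearly every protein, so their transcripts are among the most abundant in most cells. Their messages begin with a terminal oligopyrimidine tract, a C followed by a run of C and T, through which mTOR signalling and the RNA-binding protein Larp1 control their translation. In neurons some of these messages are also carried into axons and dendrites. Mammalian genomes hold many processed pseudogenes of these genes, copies made by reverse transcription of the spliced messages, and a read that maps equally well to gene and copy has several places. Only uniquely mapped reads were counted here.

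The transcription start is where these genes share sequence that their names do not fix. RefSeq gave a promoter window of 300 bases (250 before and 50 after the start) for 61 of the 80 genes, with 73 starts in all, among 32851 such windows. Each of the following stretches has 30 bases, 15 before the start and 15 from the start on, with the longest run of C and T in capitals. They are shown for genes the results below turn on, first those described by mouse, then those described by region and by library.
Rplp0 (GRCm38.p6 chr5:115559452-115559481, plus strand): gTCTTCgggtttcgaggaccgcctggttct
Rps2 (GRCm38.p6 chr17:24720048-24720077, plus strand): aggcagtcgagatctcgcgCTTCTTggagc
Rps6 (GRCm38.p6 chr4:86857353-86857382, minus strand): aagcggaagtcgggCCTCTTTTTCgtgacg
Rps15a (GRCm38.p6 chr7:118116133-118116162, minus strand): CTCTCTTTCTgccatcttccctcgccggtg
Rps9 (GRCm38.p6 chr7:3704026-3704055, plus strand): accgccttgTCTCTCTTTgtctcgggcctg
Rps10 (GRCm38.p6 chr17:27635230-27635259, minus strand): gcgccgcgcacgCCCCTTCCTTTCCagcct
Rps26 (GRCm38.p6 chr10:128626492-128626521, minus strand): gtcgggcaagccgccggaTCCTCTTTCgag

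In Rps6, Rps9 and Rps10 the capital run spans the start, while in Rplp0 and Rps15a it ends before it and in Rps2 and Rps26 it begins after it. Over the first 5 transcribed bases, C and T made up 60.8% on average in the 73 windows and 44.7% in all windows. All 5 of these bases were C or T in 21.9% of the 73 windows, against 4.44% of all. The motif CTTTC on the transcribed strand within 10 bases of the start occurred in 10 of the 61 genes, or 13.7% of their windows, against 2.44% of all windows, and CTTTT in 5.48% against 2.03%. CCGGAAG, the core bound by ETS factors such as GABP, was found on either strand in 35.6% of the windows against 8.86% of all. AAGATGGC, a core of YY1 sites, was found on either strand in 9.59% against 2.75%. TATAA on the transcribed strand was found in 19.2% of the windows, close to the 17.5% of all. These shares describe letters in a window and were not tested.

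Ribosomal protein genes differed far more from each other in counted level than from group to group. Levels between genes are given as CPM per kilobase of merged exons, mean ± SD over the 18 libraries. Among the highest were Rplp1 of the stalk with 319 ± 57.4, Rps15 of the small subunit with 191 ± 20.9, and Rpl4 and Rpl8 of the large subunit with 177 ± 15.5 and 129 ± 9.23. The ranges over libraries of Rplp1 (239 to 412) and Rps15 (158 to 225) did not overlap, whereas those of Rps15 and Rpl4 (151 to 208) did. The lowest were Rps13 with 0.040 ± 0.030, Rpl3l with 0.22 ± 0.097, Rpl34 with 0.24 ± 0.035, Rps12 with 0.25 ± 0.093 and Rpl9 with 0.33 ± 0.077. Rps13, Rpl34, Rps12 and Rpl9 encode ubiquitous subunits of the ribosome. The 10 most counted genes took 59.5% of the CPM of all 80, 12 genes stayed under 1 CPM on average, and 10 had fewer than 10 counts in at least 1 library. The median of the 80 levels was 5.52 CPM per kilobase.

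The unique share of each transcript was the percent of its 50-base windows found in no other annotated gene on either strand. For each gene the principal protein-coding transcript of GENCODE M21 was read (by APPRIS rank, then by transcript name). The median over the 80 genes was 44.0%, against 97.3% for 77 genes of the mitochondrial ribosome and 98.6% for 77 nuclear genes of oxidative phosphorylation. At least 90% of windows were unique in 7 of the 80 genes, under 50% in 46, and under 10% in 5. Stretches of 50 bases from the middle of the coding sequence show the difference; they are printed as in the transcript, first those of Rpl4 and Rpl8, which occur in no other gene, then 4 that occur elsewhere.
Rpl4, found in no other gene: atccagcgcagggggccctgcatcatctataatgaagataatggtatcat
Rpl8, found in no other gene: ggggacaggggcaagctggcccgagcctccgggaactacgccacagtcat
Rps2, found in 10 other genes: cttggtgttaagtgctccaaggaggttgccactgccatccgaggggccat
Rplp0, found in 3 other genes: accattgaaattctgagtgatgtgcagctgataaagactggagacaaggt
Rps13, found in 5 other genes: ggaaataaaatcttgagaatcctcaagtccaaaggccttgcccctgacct
Rps12, found in 9 other genes: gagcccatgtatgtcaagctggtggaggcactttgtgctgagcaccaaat

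All 10 other genes that hold the Rps2 stretch, all 3 for Rplp0 and all 5 for Rps13 are annotated as pseudogenes, and 7 of the 9 for Rps12 are. Across the 85 genes, the middle stretch of 69 occurred in at least 1 other gene and that of 16 in none. The median level was 0.865 CPM per kilobase in the 5 genes with under 10% unique windows, 3.43 in the 41 genes from 10% to under 50%, 17.2 in the 27 from 50% to under 90%, and 10.04 in the 7 with at least 90%. Spearman's rho between level and unique share over the 80 genes was 0.52 with 50-base windows and 0.46, 0.59 and 0.62 with windows of 36, 75 and 100 bases, given as a description since all points share the same libraries and annotation. Some genes lay off this relation. Rplp1 had the highest level with 40.0% unique windows, Rpl34 had one of the lowest with 62.1%, and Rpl3l, the striated-muscle counterpart of Rpl3, was near the bottom with 100% unique windows. Summed over its members, the family reached 2211 to 2809 CPM per library, between the mitochondrial ribosome (1464 to 1650 CPM) and oxidative phosphorylation (6064 to 7376 CPM). Exons of 27 of the 80 genes overlap those of another gene on the same strand and exons of 19 those of a gene on the opposite strand, and the strand setting of the counting is not given in the sources used here.

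**Figure D1:**
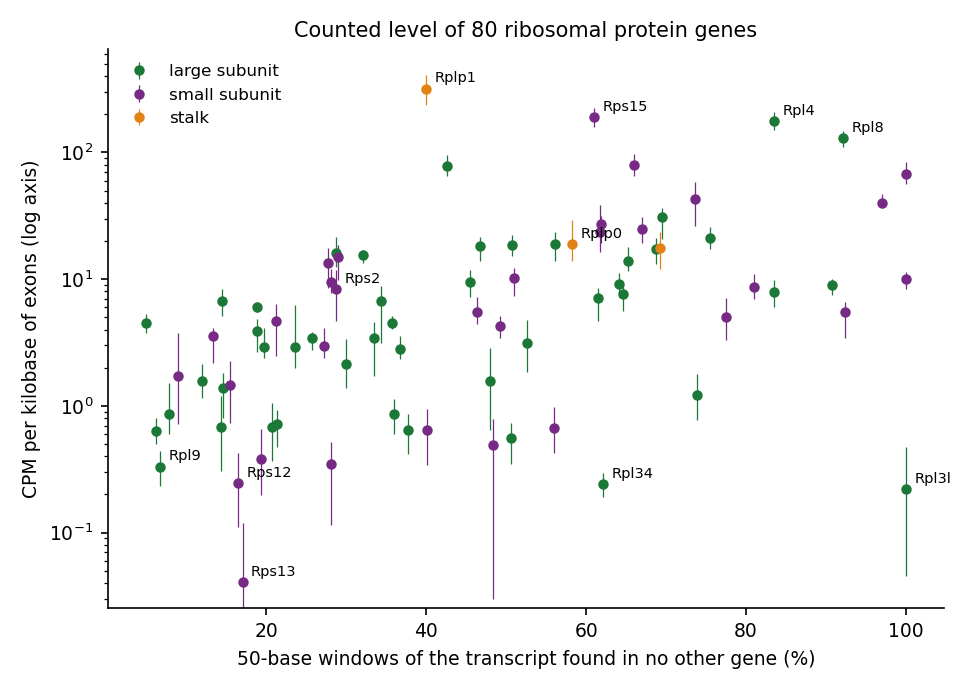
Level of each of the 80 ribosomal protein genes (CPM per kilobase of merged exons, log axis; point, mean of 18 libraries; bar, lowest to highest library, with a lowest value of 0 running off the axis) against the percent of its 50-base windows found in no other gene, with large-subunit, small-subunit and stalk genes in separate colours. Levels ranged from 0.040 for Rps13 to 319 for Rplp1, and the 5 genes under 10% on the horizontal axis had a median of 0.865.

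Paralog pairs were counted at unequal levels per kilobase of merged exons, and their unique shares differed as well. Rpl22, a large-subunit protein, was at 21.3 ± 2.12 CPM per kilobase with 75.5% unique windows. Its paralog Rpl22l1 was at 6.67 ± 1.47 with 34.4%. Rpl7 was at 18.3 ± 2.36 with 46.7% and Rpl7l1 at 8.94 ± 0.660 with 90.8%. Rpl3 was at 6.67 ± 1.02 with 14.4%, against 0.22 for Rpl3l with 100%. Rpl36al was at 2.81 ± 0.346 and Rpl36a, with 14.5% unique windows, at 1.38 ± 0.292, and their ranges over libraries did not overlap. Per kilobase of the longest transcript their means were close, at 2.98 and 2.82, so this gap depends on the length used. Rpl39 was at 7.91 ± 1.11 while Rpl39l had at most 4 counts, Rps27l was at 5.07 ± 0.978 while Rps27, with 1.35% unique windows, had at most 4 counts, and Rpl10 was at 0.865 ± 0.231 while Rpl10l had none. Rps4x, the X-linked copy of Rps4, was at 13.5 ± 2.55. Ribosomal proteins that the naming rule leaves out also spread widely: Rack1, a scaffold on the small subunit, was at 106 to 142 CPM, and Fau, made as a fusion with a ubiquitin-like protein, at 0.329 to 0.803 CPM.

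The main comparison of the study was Pcm1-/- against WT in each region. None of the 80 genes passed an adjusted p of 0.05 in any region (edgeR's quasi-likelihood test, Benjamini-Hochberg over 17545 genes). Over all genes, 1.74% were called in frontal cortex, 0.0285% in striatum and 0.0171% in hippocampus. Median log2 fold changes of the 80 genes were −0.06, 0.04 and 0.04 in that order, beside −0.01, −0.00 and −0.00 over all genes. The family's share of counts was 0.233% ± 0.0157 (SD, n = 3) in WT and 0.223% ± 0.00428 in Pcm1-/- frontal cortex, 0.267% ± 0.00951 and 0.272% ± 0.0175 in striatum, and 0.248% ± 0.00689 and 0.242% ± 0.00663 in hippocampus, with overlapping libraries each time. Without mitochondrial genes in the total, the hippocampal shares no longer overlapped, at 0.263% ± 0.00180 in WT and 0.252% ± 0.00465 in Pcm1-/-.

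At an unadjusted p under 0.05, frontal cortex had 1 gene higher and 7 lower, where 7.84% and 7.47% of all genes were higher and lower. The higher gene was Rplp0, and the lower ones were Rps2, Rpl30, Rplp1, Rpl9, Rps27a, Rpl10a and Rpl35. Striatum had 4 higher (Rpl7l1, Rps14, Rps21 and Rplp0) and 1 lower (Rps2), beside 6.54% and 6.98% of all genes, and hippocampus had 1 higher (Rplp0) and none lower, beside 4.84% and 5.06%. Without the 4 libraries that stood apart, 1 fit over the other 14, which leaves 1 WT library in hippocampus and assumes that it varies like the other groups, called 0 of the 80 genes in each region, where 3.00%, 0.901% and 0.752% of all genes were called in frontal cortex, striatum and hippocampus. At an unadjusted p under 0.05 that fit had 1 gene higher and 7 lower in frontal cortex (8.85% and 7.31% of all genes). The higher gene was Rpl7l1 and no longer Rplp0 (unadjusted p = 0.0626, edgeR), and among the lower ones Rpl3 was present and Rpl10a was not. It had 1 higher (Rps21) and 2 lower (Rpl30 and Rps12) in striatum (7.70% and 7.88%), where Rpl7l1, Rps14, Rplp0 and Rps2 were no longer among them, and none in hippocampus (5.84% and 4.94%). The median log2 fold change of the 80 genes was −0.06, −0.01 and 0.01 in that fit, so that it turned in striatum. The 4 libraries had been singled out for their levels of Rps21, among others, so its value in that fit is a description. DESeq2 called 1 of the 80 genes in frontal cortex, Rps2, and none in the other regions, beside 3.93%, 2.79% and 1.21% of the genes to which it gave a p in frontal cortex, striatum and hippocampus. Leaving out WT frontal cortex 3 gave 6 lower genes, among them Rplp1, Rps24, Rps2, Rpl30 and Rps15, beside 4.70% of all genes called, and leaving out Pcm1-/- frontal cortex 3 gave 1 higher gene, Rplp0, beside 0.308%.

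**Figure D2:**
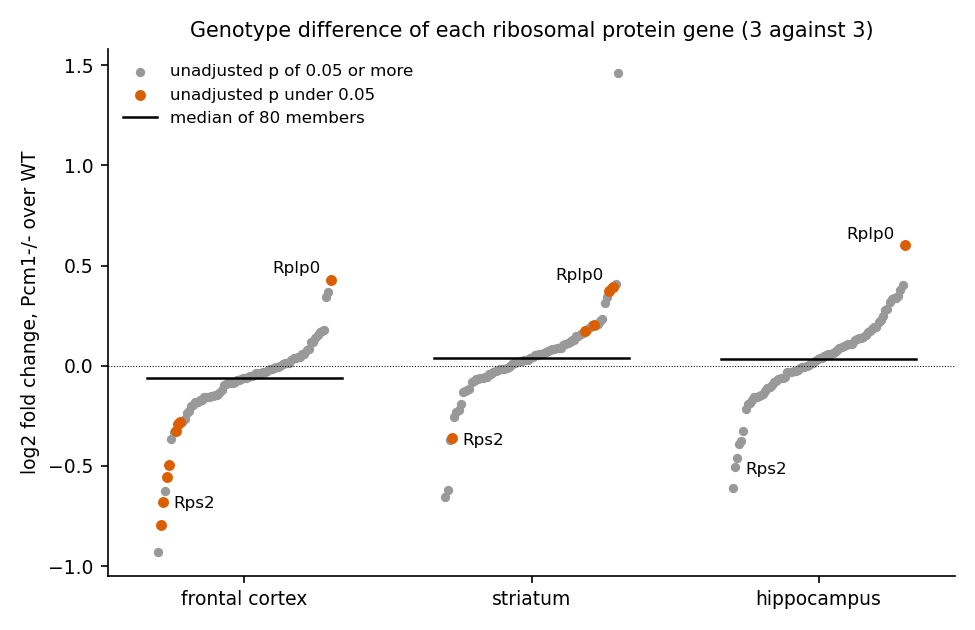
Log2 fold change of Pcm1-/- over WT (vertical axis) for each of the 80 ribosomal protein genes in frontal cortex, striatum and hippocampus, sorted within a region, 3 libraries a group; the line is the median and coloured points have an unadjusted p under 0.05. Medians lie at −0.06, 0.04 and 0.04, with Rplp0 at the upper and Rps2 at the lower side of each region.

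Rplp0, the stalk protein that anchors the other stalk proteins (chr5:115559467-115563727, plus strand, GRCm38), leaned higher in Pcm1-/- in all 3 regions. In frontal cortex its level was 26.3, 24.0 and 24.1 CPM in the WT libraries and 38.3, 38.4 and 23.9 CPM in the Pcm1-/- libraries. Pcm1-/- 1 and 2 lay above all WT libraries and Pcm1-/- 3 below them. In striatum it was 29.3, 31.4 and 24.2 CPM in WT and 40.8, 43.1 and 27.6 CPM in Pcm1-/-. The same-numbered pair was again highest, and Pcm1-/- 3 lay within the WT range. In hippocampus it was 23.0, 24.5 and 28.9 CPM in WT and 48.4, 40.1 and 29.0 CPM in Pcm1-/-, where Pcm1-/- 3 was just above the highest WT library. The log2 fold changes were 0.43 (SE 0.16; adjusted p = 0.256, edgeR), 0.40 (adjusted p = 0.369, edgeR) and 0.60 (SE 0.18; adjusted p = 0.414, edgeR). Over alternative fits, with those that leave out 1 library, they ran from 0.32 to 0.72, 0.24 to 0.57 and 0.34 to 0.77.

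Rps2, a small-subunit protein near the messenger RNA entry tunnel (chr17:24718116-24721929, plus strand, GRCm38), leaned lower in all 3 regions. In frontal cortex it was at 21.6, 21.6 and 12.5 CPM in WT and at 11.1, 12.8 and 11.1 CPM in Pcm1-/-. WT 1 and 2 stood above the rest, and WT 3 lay within the Pcm1-/- range. In striatum it was at 15.3, 21.6 and 19.4 CPM in WT and 14.3, 15.5 and 13.9 CPM in Pcm1-/-, and in hippocampus at 16.8, 19.9 and 11.9 CPM in WT and 13.2, 8.52 and 12.7 CPM in Pcm1-/-; the groups overlapped in both. The log2 fold changes were −0.68 (SE 0.19; adjusted p = 0.134, edgeR), −0.36 (SE 0.13; adjusted p = 0.287, edgeR) and −0.51 (SE 0.22; adjusted p = 0.514, edgeR). Over alternative fits, with those that leave out 1 library, they ran from −0.90 to 0.05, −0.65 to −0.18 and −0.70 to 0.12. With the log2 mitochondrial share as a covariate the frontal cortex value turned to 0.05, and without the 4 libraries named above the hippocampal value turned to 0.12. Pseudogenes that share its name had at most 20 counts per library.

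The other genes named here had the smallest p in each direction in a region. Rpl30, a large-subunit protein, was at 11.0, 8.45 and 7.67 CPM in WT and at 6.77, 6.05 and 6.53 CPM in Pcm1-/- frontal cortex, without overlap, a log2 fold change of −0.50 (SE 0.14; adjusted p = 0.140, edgeR). Rplp1 of the stalk was at 170, 143 and 127 CPM in WT and at 119, 123 and 119 CPM in Pcm1-/- frontal cortex, again without overlap, at −0.29 (SE 0.09; adjusted p = 0.186, edgeR). In the same region Rpl29, of the large subunit, differed by 0.37 and Rpl7l1 by 0.12. In striatum Rpl7l1 differed by 0.18, Rps14 by 0.20 and Rps21 by 0.37, with Rpl23 at −0.19 and Rps27rt, an intronless copy of Rps27, at −0.65. For Rps14, Rps21 and Rps27rt, WT striatum 3, which is among the libraries that stood apart, lay furthest from the Pcm1-/- libraries. Rps21 had 1095, 1130 and 732 counts in WT striatum and 1280, 1414 and 1303 in Pcm1-/-. Rps14 had 1867, 1839 and 1593 in WT and 1994, 2379 and 1993 in Pcm1-/-. Rps27rt had 20, 24 and 40 in WT and 20, 17 and 18 in Pcm1-/-. In hippocampus Rps18 differed by 0.28 and Rps14 by 0.19, with Rpl17 at −0.39 and Rpl23a, the binding site of the signal recognition particle at the tunnel exit, at −0.61. None of these passed the adjusted threshold. In striatum all WT libraries were sequenced in 1 lane and no Pcm1-/- library in that lane, and in this region the lane and the genotype cannot be told apart.

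Several measures moved with genotype in frontal cortex beside these genes, and their part in the result was not tested. The mitochondrial share was 5.65%, 4.62% and 4.05% of counts in WT and 3.34%, 3.56% and 3.20% in Pcm1-/-, without overlap. With all listed genes detected in every library, the summed level of 11 neuronal markers was 12292 to 13516 CPM in WT and 13826 to 14185 CPM in Pcm1-/-, that of 10 oligodendrocyte markers 2127 to 2799 and 1904 to 2004 CPM, that of 9 microglial markers 460 to 617 and 392 to 458 CPM, and that of 6 blood markers 114 to 180 and 36.6 to 79.5 CPM. That of 9 endothelial and mural markers was 272 to 368 CPM in WT and 251 to 258 CPM in Pcm1-/-, and that of 8 striatal neuron markers 205 to 227 and 260.0 to 291 CPM. Marker sums also separated the genotypes in the other regions, and their part was not tested there either. In striatum, striatal neuron markers were at 6985 to 8033 CPM in WT and 8318 to 8951 CPM in Pcm1-/-, 8 hippocampal markers at 254 to 279 and 305 to 393 CPM, oligodendrocyte markers at 9693 to 9933 and 5934 to 9554 CPM, and endothelial and mural markers at 289 to 320 and 258 to 265 CPM. In hippocampus, blood markers were at 138 to 218 CPM in WT and 54.2 to 82.3 CPM in Pcm1-/-, and the other lists overlapped. With the log2 mitochondrial share as a covariate, the median of the 80 genes in frontal cortex moved from −0.06 to 0.04 and none was called, beside 0.319% of all genes.

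The libraries of the 3 regions came from the same 6 mice, which allowed the per-mouse values to be compared. The mouse of each library was taken from the animal number its deposited file carries, and replicate numbers equal mouse numbers except in WT striatum, where replicates 1, 2 and 3 are mice 3, 1 and 2. Adding up the counts of the 3 regions per mouse, no ribosomal protein gene was called between genotypes (1.39% of all genes were), with Rps2 at −0.51 (adjusted p = 0.159, edgeR, 3 mice against 3) and Rplp0 at 0.47 (adjusted p = 0.198, edgeR, 3 mice against 3). A further test, added after the values were seen, asked whether mice of the same genotype differed across their 3 regions. It called 5 of the 80 genes, or 6.25%, which is near the 5.88% of all genes called.

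Among those genes were Rplp0 (adjusted p = 0.00516), Rpl29 (0.0151), Rplp1 (0.0303) and Rps24 (0.0430) in edgeR's quasi-likelihood test. For Rplp0, Pcm1-/- mice 1 and 2 ranged from 38.3 to 48.4 CPM over their 3 regions, Pcm1-/- mouse 3 from 23.9 to 29.0 CPM, and the 3 WT mice from 23.0 to 31.4 CPM. Mouse 3 of the mutant group lay just below the WT libraries in frontal cortex, within them in striatum and just above them in hippocampus. For Rps2, WT mice 1 and 2 ranged from 16.8 to 21.6 CPM, WT mouse 3 from 11.9 to 15.3 CPM, and the Pcm1-/- mice from 8.52 to 15.5 CPM, with an adjusted p of 0.0772 in the same edgeR test, which ran from 0.00748 (without Pcm1-/- hippocampus 2) to 0.310 (without WT frontal cortex 3) when 1 library was left out. Here 1 WT mouse lay within the values of the mutants. For Rpl29, WT mouse 1 was lowest in each region with 1.93 to 2.52 CPM, and the other 5 mice ranged from 3.02 to 5.17 CPM.

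The number of genes called between mice depended on the libraries and on the mitochondrial share. It was 3 with the mitochondrial share as a covariate, where Rplp0 (0.000336), Rps2 (0.0331) and Rps10 (0.0213) passed in edgeR and Rpl29, Rplp1 and Rps24 did not, beside 2.43% of all genes. It was also 3 (Rplp0, Rps2 and Rpl30) without the 4 libraries that stood apart, beside 3.38% of all genes. Leaving out 1 library gave 1 to 6 genes: 1 without WT frontal cortex 1, 2 without WT frontal cortex 3, WT hippocampus 1 or WT hippocampus 3, and 3 without WT frontal cortex 2, Pcm1-/- frontal cortex 1, Pcm1-/- striatum 3, Pcm1-/- hippocampus 1 or Pcm1-/- hippocampus 3. The share of all genes called fell as well, to between 3.36% (without WT frontal cortex 1) and 5.49%. The adjusted p of Rplp0 lay between 0.00196 and 0.0406 in these 18 fits.

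**Figure D3:**
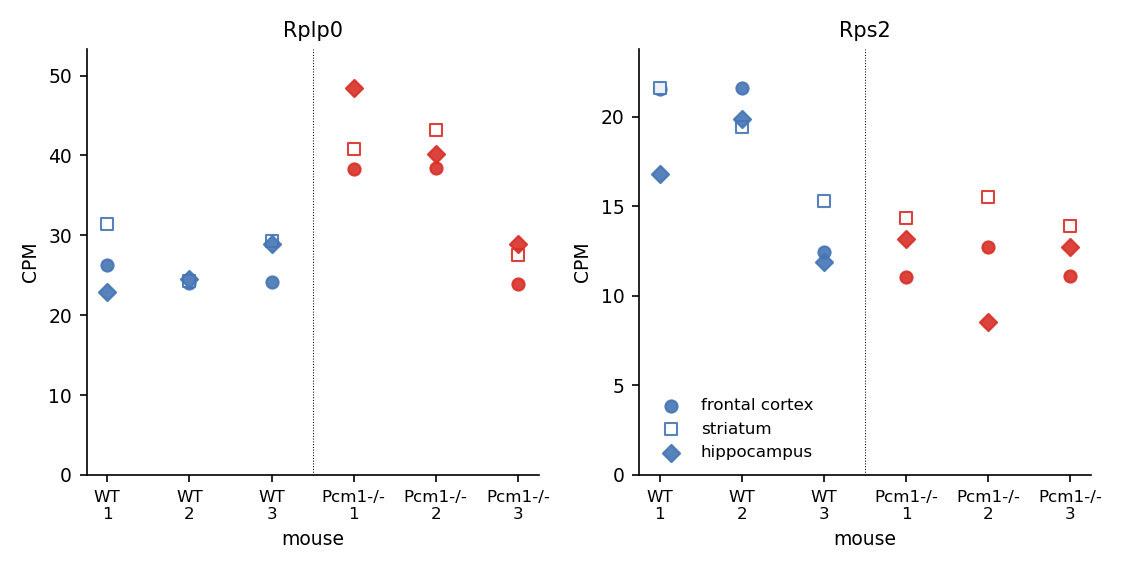
Level (CPM) of Rplp0 and Rps2 in each of the 6 mice, 3 WT and 3 Pcm1-/-, with 1 symbol per region and 1 library per symbol. Rplp0 lies at 38.3 to 48.4 CPM in Pcm1-/- mice 1 and 2 and at 23.0 to 31.4 CPM in the other 4 mice, and Rps2 at 16.8 to 21.6 CPM in WT mice 1 and 2.

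Counts of individual ribosomal protein genes also followed the mitochondrial share of a library. A slope on the log2 mitochondrial share beside the 6 group means, a test added after the values were seen, called 20 of the 80 genes, where 7.86% of all genes were called. Of the 20 genes, 9 rose with the share (4.55% of all genes did) and 11 fell (3.31% of all genes did). Per doubling of the mitochondrial share, Rps26, a small-subunit protein at the messenger RNA exit, rose by 0.97 ± 0.09 (log2, SE; adjusted p = 2.3e-05, edgeR). Rpl41, the smallest ribosomal protein, rose by 0.76 and Rpl28 by 0.72, and Rps24 by 0.62, Rpl23 by 0.46, Rplp1 by 0.44, Rpl14 by 0.35 and Rpl4 by 0.26. Among the falling genes were Rps10 at −0.91 ± 0.23 (adjusted p = 0.0247, edgeR), Rpl22l1 at −0.83, Rps3a1 at −0.64, and Rps4x and Rps21 at −0.63 each. Rplp2, Rps20, Rpl37a, Rpl32 and Rpl22 fell by 0.54, 0.53, 0.45, 0.37 and 0.25.

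Without the 4 libraries that stood apart, 5 of the 80 genes were called over the remaining 14, beside 3.38% of all genes. All 5 rose, among them Rps26, Rpl41, Rps24 and Rplp1. The slopes of Rps26, Rps21 and Rps10 were 0.81, −0.02 and −0.28 there. They are given as a description, since the 4 libraries stood apart for their levels of these genes. Rps26 ranged from 25.4 to 42.1 CPM in the 14 libraries and from 47.6 to 59.7 CPM in the 4. Rps24, also of the small subunit, ranged from 43.5 to 61.7 CPM in the 14 and from 61.3 to 69.2 CPM in the 4. With a term for each mouse the slope called 6 of the 80 genes, beside 0.251% of all genes. Leaving out 1 library gave 8 to 23 calls, with 8 without WT hippocampus 3, where 1.29% of all genes were called, 12 without Pcm1-/- hippocampus 2 (8.26%) and 23 without WT hippocampus 2 (9.55%).

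**Figure D4:**
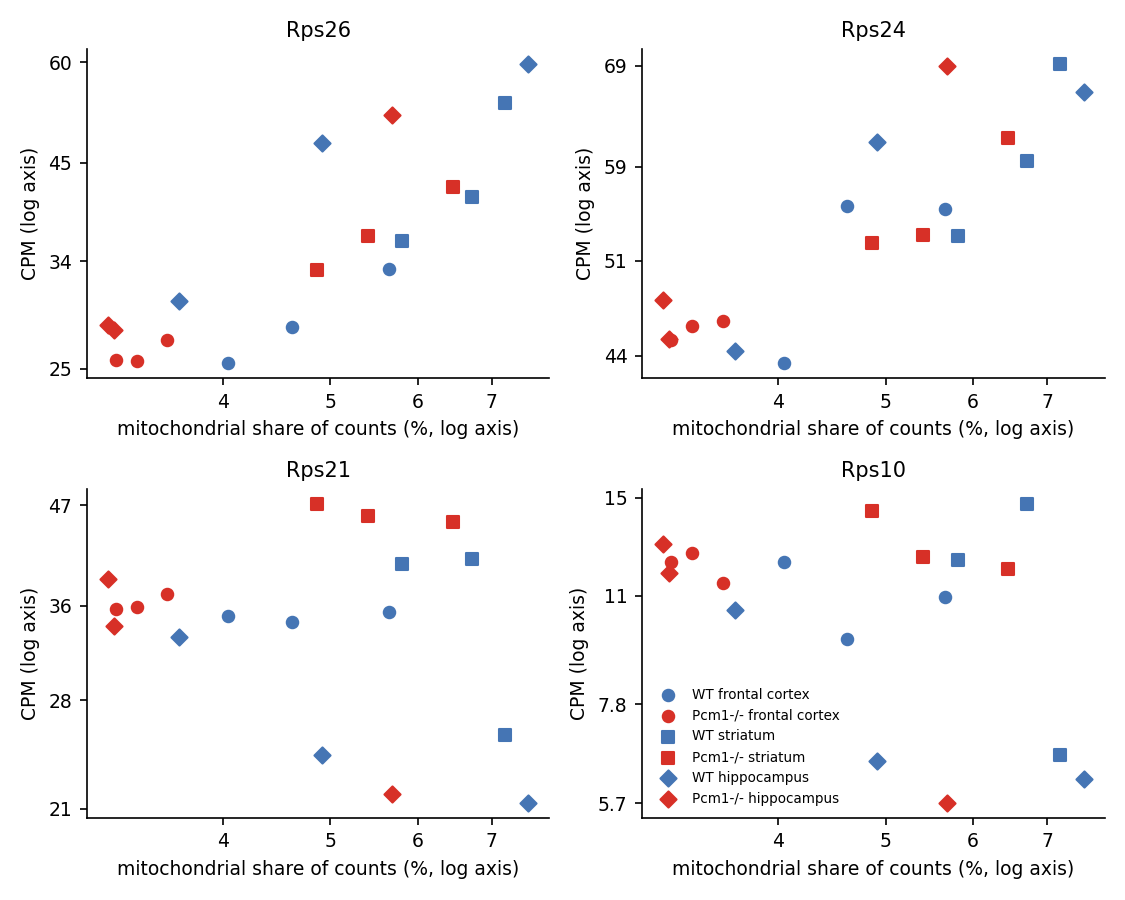
Level (CPM, log axis) of Rps26, Rps24, Rps21 and Rps10 against the mitochondrial share of counts (percent, log axis) in the 18 libraries, with WT and Pcm1-/- in separate colours and 1 symbol per region. WT striatum 3, WT hippocampus 1 and 2 and Pcm1-/- hippocampus 2 lie lowest for Rps21 (21.3 to 25.6 CPM) and Rps10 (5.71 to 6.63 CPM) and highest for Rps26 (47.6 to 59.7 CPM).

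Regions differed for part of the family, a smaller share than over all genes in each comparison. Among the genes called, striatum was most often the higher region. Against frontal cortex the share higher in striatum was near that of all genes, and the share lower was smaller. In the fit of all 18 libraries, with genotypes weighted equally, 25 of the 80 genes were higher and 6 lower in striatum than in frontal cortex, beside 61.9% of all genes called, 31.3% higher and 30.6% lower. Hippocampus against frontal cortex gave 10 higher and 5 lower, beside 51.8% of all genes called, 25.8% higher and 26.0% lower. Hippocampus against striatum gave 6 higher and 32 lower, beside 52.5%, 26.8% and 25.7%. No called gene of the family differed by as much as 2-fold, and the median absolute log2 fold change of the 80 genes was 0.21, 0.14 and 0.28 in these comparisons, beside 0.37, 0.28 and 0.29 over all genes. The medians with sign were 0.18, −0.06 and −0.23, beside 0.02, −0.00 and 0.00 over all genes, and 59, 30 and 17 of the 80 genes were higher in the first-named region. Called genes whose libraries did not overlap numbered 15, 2 and 8 of the 80, beside 41.6%, 27.7% and 28.4% of all genes.

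Called genes came from both subunits. Between striatum and frontal cortex 12 of 46 large-subunit genes were higher and 2 lower, and 11 of 31 small-subunit genes were higher and 4 lower. Of the 3 stalk genes Rplp1 and Rplp2 were higher. Over all genes 31.3% were higher and 30.6% lower. Between hippocampus and striatum 4 of 46 large-subunit genes were higher and 18 lower, and 2 of 31 small-subunit genes were higher and 12 lower. Over all genes 26.8% were higher and 25.7% lower there.

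Striatum was lowest for a small set of genes. Rps15a of the small subunit (chr7:118104372-118116188, minus strand, GRCm38) had a lowest, median and highest level of 71.6, 75.2 and 77.4 CPM in frontal cortex, 46.2, 47.3 and 49.8 CPM in striatum and 65.0, 69.4 and 75.5 CPM in hippocampus. All 6 striatal libraries lay below all others. Its log2 fold change was −0.64 ± 0.04 (SE; adjusted p = 1.3e-09, edgeR) for striatum against frontal cortex and 0.55 ± 0.04 (adjusted p = 1.0e-08, edgeR) for hippocampus against striatum. Rps6, the small-subunit protein phosphorylated by S6 kinase (chr4:86854660-86857412, minus strand, GRCm38), had a lowest, median and highest level of 2.39, 2.97 and 3.58 CPM in frontal cortex, 1.15, 1.58 and 1.91 CPM in striatum and 2.12, 2.31 and 2.77 CPM in hippocampus. Striatum was again below both other regions without overlap, at −0.93 ± 0.13 against frontal cortex (adjusted p = 7.6e-06, edgeR) and with hippocampus above striatum by 0.61 ± 0.13.

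Rpl21 of the large subunit ran from 3.83 to 4.71 CPM in frontal cortex, from 2.64 to 3.46 CPM in striatum and from 4.62 to 6.08 CPM in hippocampus, so striatum was lowest without overlap while cortex and hippocampus overlapped. Its log2 fold changes were −0.51 ± 0.11 for striatum against frontal cortex and 0.79 ± 0.11 for hippocampus against striatum. Rps7 of the small subunit differed by −0.60 ± 0.18 between striatum and frontal cortex. Rps6 and Rps7 were counted at under 4 CPM and have 15.4% and 40.1% unique windows.

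More genes were highest in striatum. Rps9, a small-subunit protein that binds early in assembly (chr7:3703993-3706897, plus strand, GRCm38), had a lowest, median and highest level of 48.3, 51.3 and 57.5 CPM in frontal cortex, 66.2, 75.1 and 78.6 CPM in striatum and 53.5, 60.4 and 66.7 CPM in hippocampus. Striatum lay above cortex without overlap and met the hippocampal range at its edge. Its log2 fold change was 0.51 ± 0.06 against frontal cortex (adjusted p = 7.9e-07, edgeR). Rps19, the small-subunit protein whose loss causes Diamond-Blackfan anaemia, ran from 20.8 to 24.9 CPM in frontal cortex, from 29.9 to 34.2 CPM in striatum and from 21.6 to 25.3 CPM in hippocampus. It was higher in striatum by 0.50 ± 0.06 (adjusted p = 8.6e-07, edgeR) than in cortex, and hippocampus lay below striatum by −0.42 ± 0.06. Cortex and hippocampus overlapped for Rps19.

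Rpl31, a large-subunit protein at the tunnel exit, ran from 2.32 to 3.75 CPM in frontal cortex, from 4.12 to 5.57 CPM in striatum and from 2.36 to 3.27 CPM in hippocampus, higher in striatum than in cortex by 0.65 ± 0.12 and lower in hippocampus than in striatum at −0.80 ± 0.12. Exons of a gene on the opposite strand overlap 25.3% of the exonic bases of Rpl31. Rplp1 ran from 119 to 170 CPM in frontal cortex, from 173 to 205 CPM in striatum and from 133 to 197 CPM in hippocampus, at 0.49 ± 0.09 for striatum against cortex. Rpl35a of the large subunit was lower in hippocampus than in striatum at −0.36 ± 0.06.

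Both genes that separated hippocampus from frontal cortex without overlap were of the large subunit. Rpl3, which lies at the peptidyl transferase centre, ran from 16.1 to 18.7 CPM in frontal cortex and from 20.8 to 26.3 CPM in hippocampus, at 0.40 ± 0.06 (adjusted p = 6.5e-05, edgeR), and reached 21.2 to 25.4 CPM in striatum. Rpl7 ran from 37.7 to 45.9 CPM in frontal cortex and from 47.2 to 54.1 CPM in hippocampus, at 0.26 ± 0.05 (adjusted p = 0.000288, edgeR), and was at 52.5 to 57.8 CPM in striatum. No gene was lower in hippocampus than in frontal cortex with libraries that did not overlap.

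**Figure D5:**
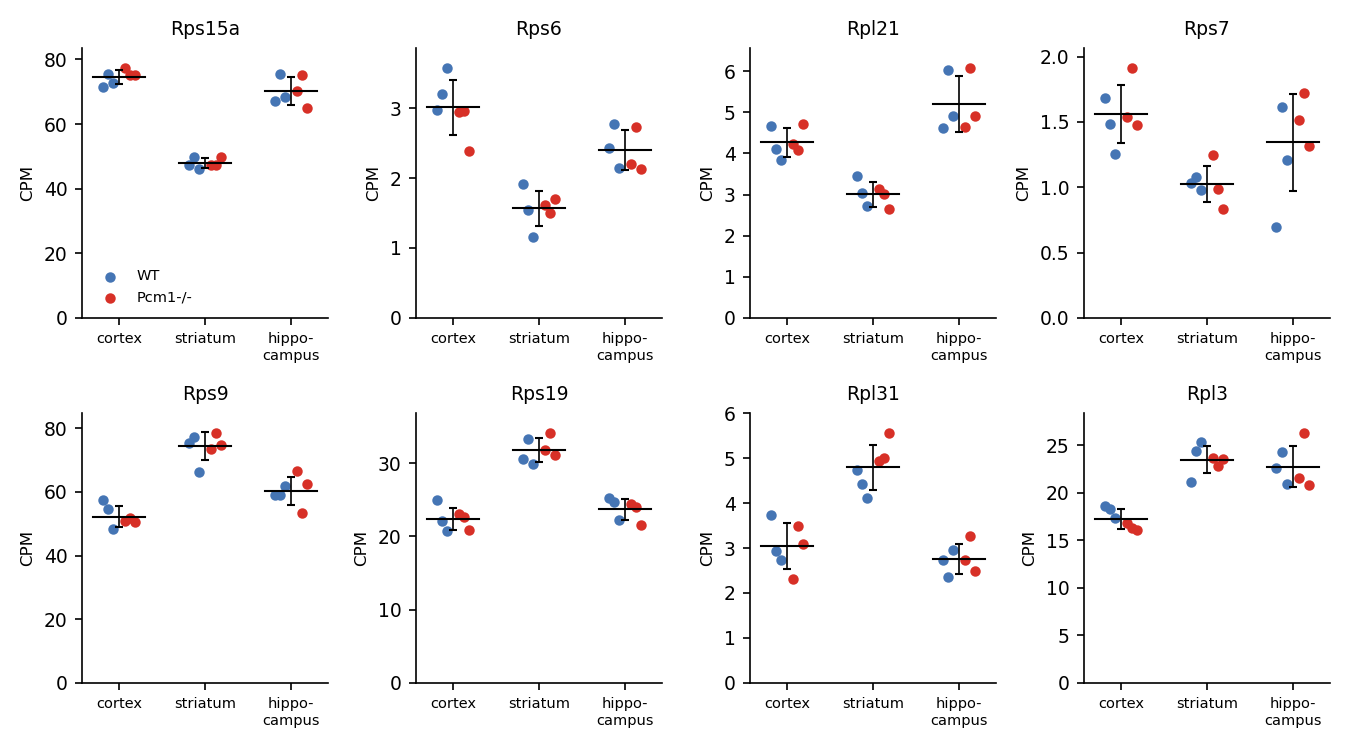
Level (CPM) of 8 ribosomal protein genes in frontal cortex, striatum and hippocampus, with each point a library, WT and Pcm1-/- in separate colours, and the line and bar the mean and SD of the 6 libraries of a region. Striatum is lowest for Rps15a, Rps6 and Rpl21 without overlap (46.2 to 49.8 CPM against 65.0 to 77.4 CPM for Rps15a), and highest without overlap for Rps19 and Rpl31 (29.9 to 34.2 CPM against 20.8 to 25.3 CPM for Rps19).

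The region counts moved with the libraries in the fit. Without the 4 libraries that stood apart, 46 genes were called between striatum and frontal cortex, 40 higher and 6 lower, where 32.7% and 31.8% of all genes were, and 30 of the 31 named above were among them. In the same fit 16 were called between hippocampus and frontal cortex, 9 higher and 7 lower beside 24.7% and 25.7% of all genes, with 8 of the 15 among them. Between hippocampus and striatum it called 39, 5 higher and 34 lower beside 25.9% and 24.1% of all genes, with 34 of the 38 among them. With a term for each mouse the counts were 34, 23 and 45, beside 65.7%, 56.6% and 56.8% of all genes, and all 15 genes called between hippocampus and frontal cortex remained. With the mitochondrial share as a covariate 25 genes were called between hippocampus and frontal cortex, beside 55.0% of all genes. WT libraries alone gave 11, 5 and 12 calls, beside 41.5%, 29.8% and 29.2% of all genes. Pcm1-/- libraries alone gave 29, 7 and 29, beside 54.3%, 41.5% and 45.0% of all genes. Leaving out 1 library gave 11 to 21 calls between hippocampus and frontal cortex, beside 47.7% to 52.6% of all genes. Choroid plexus and ependymal markers differed between the libraries, and their part in the result was not tested. The summed level of 10 such markers was 7.34 to 13.9 CPM in frontal cortex, where Otx2, Kcne2, Tmem212 and Ccdc153 were at 0 in at least 1 library. It was 68.2 to 220 CPM in 5 striatal libraries and 6039 CPM in WT striatum 3, and it ran from 240 to 6343 CPM in hippocampus. Summed oligodendrocyte markers were 1904 to 2799 CPM in cortex and 5934 to 9933 CPM in striatum and 3936 to 10168 CPM in hippocampus. Summed neuronal markers were 12292 to 14185 CPM in cortex, 6192 to 6597 CPM in striatum and 8643 to 11807 CPM in hippocampus.

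Whether the genotype difference itself changed with region was tested as an interaction over all 18 libraries. No ribosomal protein gene was called, 0 had an unadjusted p under 0.05 (5.54% of all genes did), and 0.0114% of all genes were called (edgeR). The count was also 0 with DESeq2 size factors, a lane term, a term for each mouse, the mitochondrial share as a covariate, and without the 4 libraries that stood apart, where 1 gene had an unadjusted p under 0.05.

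The rest of the translation pathway was read from fixed lists. Of 37 translation factors, none was called by genotype in any region, 8 were higher and 13 lower in striatum than in frontal cortex (31.3% and 30.6% of all genes were), and 14 were higher and 5 lower in hippocampus than in striatum (26.8% and 25.7% of all genes). The elongation factor Eef1a1 was higher in striatum than in cortex by 0.59 ± 0.05, and its neuronal and muscle paralog Eef1a2 lower, at −0.49 ± 0.06. Of 47 genes of ribosome biogenesis, none was called by genotype, and 12 were higher and 11 lower in striatum than in cortex, beside the same 31.3% and 30.6%. Of 21 regulators of ribosomal protein messages, 1 was called by genotype: Tia1, which binds their terminal oligopyrimidine tracts under stress, fell by 0.35 (SE 0.07; adjusted p = 0.0452, edgeR) in Pcm1-/- frontal cortex, where 1.74% of all genes were called. Larp1 was called between regions, lower in striatum than in cortex at −0.49 ± 0.05.

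The mitochondrial ribosome and oxidative phosphorylation were read beside the cytosolic ribosome as families of similar size. Of 77 mitochondrial ribosome genes, 9 were higher and 25 lower in striatum than in frontal cortex, with a median log2 fold change of −0.07, beside 25 higher and 6 lower with a median of 0.18 for the 80 cytosolic genes. Of 77 oxidative phosphorylation genes, 11 were higher and 20 lower, with a median of −0.04. Over all genes, 31.3% were higher and 30.6% lower. By genotype none was called in either family in any region. Against the mitochondrial share of counts, 6 mitochondrial ribosome genes rose and 3 fell, and 11 oxidative phosphorylation genes rose and 7 fell, beside 9 and 11 of the cytosolic genes and 4.55% and 3.31% of all genes. The difference between the families was not tested.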

How the data were processed

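RNA was measured by stranded poly(A) RNA-seq (KAPA stranded mRNA-seq kit, HiSeq) in 18 mouse brain libraries. The authors trimmed reads with Trim Galore and cutadapt, aligned them to GRCm38 with STAR, kept uniquely mapped reads and deposited raw HTSeq counts per gene for each library. Tool versions and the strand setting are not given in the sources used here. Counts on no gene or on several genes (10.8% to 13.2% of each file) stayed out of library sizes. The deposited counts were tested with edgeR 4.0.16 (TMM, glmQLFit, glmQLFTest; R 4.3.3), with Benjamini-Hochberg adjustment over 17545 genes that reached 10 counts in any library, at a threshold of 0.05. Genotype was tested on the 6 libraries of each region, and regions and the interaction on all 18 libraries with 6 group means. CPM are TMM-scaled over all 18 libraries. GENCODE M21 gave exons and transcripts, and RefSeq (GRCm38.p6) promoter windows.

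Named genes were, by genotype, the 3 with the smallest p in each direction in each region; by region, the 4 called and non-overlapping genes with the largest change in each direction; the 5 highest and 5 lowest by CPM per kilobase; paralog pairs, stalk genes and Pcm1. The genes of the mouse and mitochondrial share tests, Rps10, Rps21, Rps26 and the genes at an unadjusted p under 0.05 were named after their values were seen. The 80 genes and the lists were chosen with earlier results of these data known. The genotype, region, interaction, mouse and mitochondrial share fits were tested on simulated data in which 200 genes had been given known changes. Replicates are separate mice, and same-numbered libraries of a region deviated together (every r above 0.1) in hippocampus only, with a mean r of 0.337; libraries of the same mouse had a mean r of 0.301 across regions. Results of some genes of the set are not reported here.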

Additional observations from a re-analysis of the deposited data

How the results depend on the processing

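The interaction count stayed at 0 in every alternative, and no alternative with an adjusted threshold called a ribosomal protein gene by genotype in striatum or hippocampus. In frontal cortex, testing without the count filter and DESeq2 each called 1 gene, Rps2 (adjusted p = 0.0427 and 0.00835), beside 544 and 687 genes of all; an unadjusted threshold gave 8, 5 and 1 genes in frontal cortex, striatum and hippocampus. Blocking by replicate number called 1 gene in frontal cortex, again Rps2 (adjusted p = 0.0335), beside 665 genes of all, with Rps2 at −0.65 on the log2 scale beside −0.67 unfiltered and −0.68 in DESeq2; the numbers do not pair the frontal cortex libraries, and no other genotype call changed under the block. With the mitochondrial share as a covariate the frontal cortex median was 0.043 and Rps2 there 0.048. Leaving out 1 library gave 0 to 6 genes in frontal cortex and 0 in the other regions. In frontal cortex it gave 6 without WT 3, beside 4.70% of all genes, and 1 without Pcm1-/- 3, beside 0.308%. Medians ran from −0.073 to −0.032, −0.015 to 0.096 and −0.001 to 0.084 in frontal cortex, striatum and hippocampus.

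Between hippocampus and frontal cortex 23 genes were called with the mouse as a replicate block, beside 56.6% of all genes. With the mitochondrial share as a covariate 25 were, beside 55.0%. WT libraries alone called 11, 5 and 12 genes, with a median of 0.093 between striatum and frontal cortex, and Pcm1-/- libraries alone called 7 between hippocampus and frontal cortex, with a median of 0.020. Leaving out 1 library gave 26 to 36 calls for striatum against cortex and 11 to 21 for hippocampus against cortex. For hippocampus against striatum it gave 31 to 43. With all 18 libraries 61.9%, 51.8% and 52.5% of all genes were called in these comparisons. Medians without 1 library were 0.138 to 0.205, −0.073 to −0.032 and −0.269 to −0.215. The lowest and highest hippocampus-against-cortex counts were 11 without WT frontal cortex 2 or Pcm1-/- frontal cortex 1 and 21 without WT hippocampus 3. The mouse test called 3 genes with the mitochondrial share as a covariate, beside 2.43% of all genes. It called 1 to 6 without 1 library, where 590 to 963 of all 17545 genes were called. The mitochondrial share test called 6 genes with the mouse as a replicate block, beside 0.251% of all genes. It called 8 to 23 without 1 library, where 226 to 1676 of all genes were called. Without the 4 libraries that stood apart Rps2 in hippocampus was at 0.12. Pcm1-/- to WT, the hippocampal share was 0.975 and, per TMM-scaled library size, 1.01. Per kilobase of the longest transcript in place of merged exons, the median level was 10.1. The cause of these moves was not tested.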
